A study of Mus musculus with 6 samples.

Results

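The genes that mark mast cells here, Cpa3, Cma1, Mcpt4, Tpsb2, Kit, Ms4a2 and Fcer1a, were followed in the left ventricle of mice with and without Akt2. They are 7 of the 18193 genes that the array annotation names with a probe set of their own, and every probe set that names exactly 1 of them was taken, 10 in all. Cpa3 was selected on its measured values, the unadjusted p and the fold change between these same 6 samples in an earlier look at them. The other 6 were put beside it, as known mast cell genes, with those results known. The comparison of genotypes is therefore given for these genes as a description, with no test.

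Left ventricles came from male mice aged 12 to 16 weeks. The 3 akt2-/- samples carried a targeted disruption of the akt2 gene that had been crossed back to C57BL/6 for more than 7 generations, and the 3 wild type samples are labelled with the same strain, C57BL/6. Nothing in the labels restricts the disruption to a cell type, and nothing says that the samples of a genotype came from separate mice, so errors measure only the spread between these samples. Each sample was read on its own array as 1 MAS5 signal per probe set, a linear intensity.

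Mast cells are resident immune cells of connective tissue that lie along vessels and nerves, and they are sparse in the heart. Their granules hold proteases bound to heparin (carboxypeptidase A3, chymases and tryptases), histamine and other mediators. They depend on the receptor tyrosine kinase Kit, whose ligand comes from neighbouring cells, and they release their granules when IgE on the receptor Fc epsilon RI is crosslinked. Factors of the GATA family, among them Gata2, and Mitf are known regulators of mast cell genes.

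The proximal promoters of Cpa3, Cma1 and Fcer1a are shown because these 3 were the members at least 1.5-fold lower in the knockout on the scale log2(signal + 21.7), which is explained with Cpa3. Each runs 5′ to 3′ on the strand of the gene, from 250 bases before to 50 bases after a RefSeq start on GRCm38.p6. They lie at chr3:20242132-20242431, chr14:55944626-55944925 and chr1:173227180-173227479, all on the minus strand. Capitals mark GATA words, which are AGATAA or AGATAG and also TGATAA or TGATAG, on either strand.
Cpa3: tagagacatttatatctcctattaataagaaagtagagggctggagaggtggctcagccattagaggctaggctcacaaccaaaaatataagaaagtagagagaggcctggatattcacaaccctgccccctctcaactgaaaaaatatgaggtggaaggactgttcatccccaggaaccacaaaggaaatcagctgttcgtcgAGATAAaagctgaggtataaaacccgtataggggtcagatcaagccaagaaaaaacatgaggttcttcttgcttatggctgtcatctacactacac
Cma1: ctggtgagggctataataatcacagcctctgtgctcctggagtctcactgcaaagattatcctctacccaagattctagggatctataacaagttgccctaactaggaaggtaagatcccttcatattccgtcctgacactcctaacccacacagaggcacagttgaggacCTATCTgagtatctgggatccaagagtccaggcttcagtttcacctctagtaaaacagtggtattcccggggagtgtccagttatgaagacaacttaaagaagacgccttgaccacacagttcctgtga
Fcer1a: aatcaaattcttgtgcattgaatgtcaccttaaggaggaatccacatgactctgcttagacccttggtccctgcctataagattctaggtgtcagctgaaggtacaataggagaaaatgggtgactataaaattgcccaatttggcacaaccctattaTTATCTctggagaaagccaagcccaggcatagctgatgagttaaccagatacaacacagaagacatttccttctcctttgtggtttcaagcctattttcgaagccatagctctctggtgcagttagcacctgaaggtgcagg
The marked word began 46 bases before the start in Cpa3, 79 in Cma1 and 92 in Fcer1a. A promoter was given for 6 of the 7 members. At least 1 such word was found in 5 of them, all but Kit, with 3 in Ms4a2 and 1 in each of the others, while 29.8% of 32851 promoters of the same 300-base length held at least 1. The E-box letters CANNTG, searched separately and able to share letters with a GATA word, were present in Cpa3, Cma1, Kit and Fcer1a and in 72.3% of all promoters. A match is a description of these letters and not a binding site.

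Akt2 itself checked the genotype labels. The brightest of its 3 probe sets had signals of 2362.6, 2561.3 and 2505.4 in wild type 1 to 3 and of 477.8, 394.5 and 255.4 in knockout 1 to 3. The log2 difference was -2.69 (SE 0.249), and in all 3 probe sets every knockout sample lay below every wild type sample. By limma its adjusted p over the 11075 genes tested was 0.0638, so Akt2 itself was not called at the threshold of 0.05. Counts of 0 after adjustment given below come from this same test. The 2 samples numbered 1 stood apart from those numbered 2 and 3: wild type 1 and knockout 1 had median signals of 167.2 and 134.3, where the rest had 88.4 to 91.2. Their 18S ribosomal RNA controls had medians of 82330 and 57275.2, where the rest had 152.7 to 446.7. Differences are therefore also given separately for the samples numbered 1 and for those numbered 2 and 3. The tissue label was checked by markers: Myl2, the ventricular light chain, had signals of at least 56148.6 in every sample.

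Cpa3 encodes carboxypeptidase A3, the granule enzyme that trims C-terminal residues of peptides and a marker of mast cells. Its single probe set had signals of 244.9, 132.4 and 168.4 in wild type 1, 2 and 3 and of 64.2, 53.6 and 35.6 in knockout 1, 2 and 3. The groups did not overlap: the highest knockout sample was below the lowest wild type sample. The mean was 51.1 ± 14.5 in the knockout and 181.9 ± 57.5 in the wild type (SD, n = 3 each), a ratio of 3.56. On the scale log2(signal + 21.7), where the constant is the 20th percentile of all values and lessens the change of dim probe sets, the difference was -1.47 (SE 0.27). It was -1.63 for the samples numbered 1 and -1.38 for those numbered 2 and 3. In each sample the signal ranked between the 56.7th and 61.2nd percentile of all probe sets in the wild type and between the 29.3rd and 39.3rd in the knockout. In tissue as a whole, fewer mast cells and less RNA per mast cell cannot be told apart.

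Fcer1a encodes the alpha chain of Fc epsilon RI, which binds IgE. It had signals of 204.7, 55.3 and 35.9 in wild type 1, 2 and 3 and of 34.6, 25.6 and 1.8 in the knockout. The groups again did not overlap, but only just: knockout 1, at 34.6, lay next to wild type 3, at 35.9, and wild type 1 was far above all other samples. The log2 difference was -1.33, with an SD within genotypes of 0.874. Without wild type replicate 1 it was -0.75.

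Across the array, all 3 knockout samples lay below all 3 wild type samples in 3.97% of 45037 probe sets. Among the 10 mast cell probe sets these were the 2 just described, and 0 lay above, as 3.61% of all probe sets did. Because Cpa3 was chosen for its difference in these samples, the count is given without a reading. Among the samples numbered 2 and 3, both knockout samples were below both wild type samples in 4 of the 10 (Cpa3, Fcer1a and 1 probe set each of Tpsb2 and Ms4a2), against 19.2% of all probe sets.

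**Figure D1:**
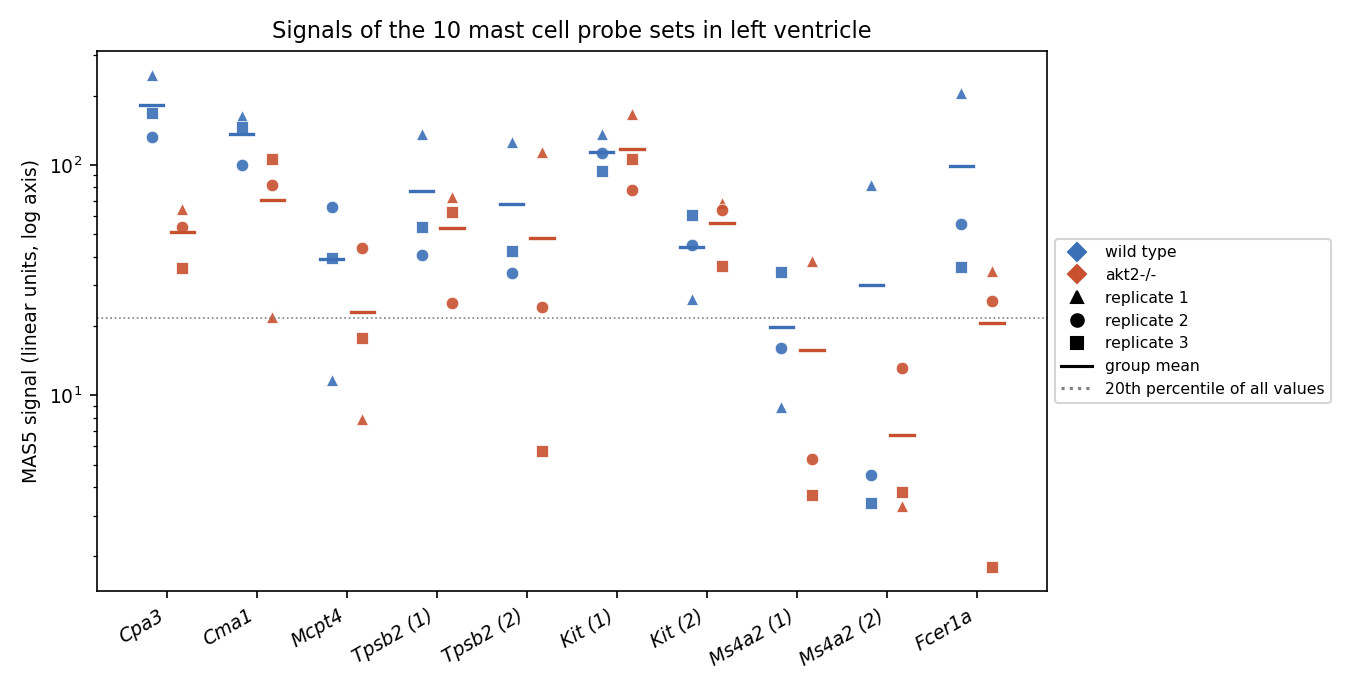
MAS5 signals (linear units on a log axis) of the 10 mast cell probe sets in 3 wild type and 3 akt2-/- left ventricle samples, with symbols for the replicate number, short lines for the group means and a dotted line at 21.7, the 20th percentile of all values. The number in brackets orders the probe sets of a gene from brighter to dimmer. Cpa3 has all knockout samples at or below 64.2 and all wild type samples at or above 132.4, while the other genes overlap or, in Fcer1a, nearly touch.

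The granule chymases were lower on average with overlapping groups. Cma1, a chymase of connective tissue mast cells, had signals of 162.5, 100.2 and 146.4 in wild type 1, 2 and 3 and of 21.8, 82.1 and 106.5 in the knockout. Knockout 1 was far below the rest, and knockout 3 was above wild type 2. The log2 difference was -0.90 (SD within genotypes 0.625), made up of -2.08 for number 1 and -0.31 for numbers 2 and 3. Leaving out knockout replicate 1 gave -0.43. Mcpt4, the protease regarded as the mouse counterpart of human chymase in its cleavage preference, had 11.7, 65.7 and 39.6 in the wild type and 7.9, 43.4 and 17.7 in the knockout. Each knockout sample was below the wild type sample of the same number, yet knockout 2 exceeded wild type 3, and the spread between numbers was wider than that between genotypes. The log2 difference was -0.41 (SD 0.642).

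Cma1 and Mcpt4 lie in the same cluster of protease genes on chromosome 14, with Mcpt1 and Mcpt2 between them and Mcpt8 and Ctsg beyond Mcpt4. These neighbours had low signals in most samples. Mean signals of knockout and wild type were 10.7 against 16.2 for Mcpt1, 41.9 against 54 for Mcpt2, 14.3 against 5.13 for Mcpt8, a protease of basophils, and 22.1 against 51.5 for Ctsg. All 4 overlapped between genotypes. Gzme, a granzyme beyond Ctsg, was near the bottom of the array with all knockout samples lower (log2 -0.32). On the other side of Cma1, Nynrin had mean signals of 47.1 in the knockout and 112.3 in the wild type, again with all knockout samples lower (log2 -0.90). There Cbln3 had -0.87 and Khnyn -0.52, both overlapping. All knockout samples were lower in 4% of the 18193 genes. Among the neighbours of Cpa3 on chromosome 3, Gyg, glycogenin, had a log2 difference of -0.07, Hltf, a helicase-like factor, 0.35 and Cpb1, a pancreatic carboxypeptidase that was near the bottom of the array, 0.00. Agtr1b, an angiotensin receptor next to Cpb1, had mean signals of 31 against 85.0 and overlapped (log2 -0.25).

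The tryptase Tpsb2, which forms heparin-bound tetramers in the granule, was measured by 2 probe sets. The brighter had 136.5, 40.6 and 54 in the wild type and 72.4, 25.2 and 62.5 in the knockout, and the other had 126.1, 34 and 42.3 against 114.3, 24.2 and 5.7. Both were highest in wild type 1, and in both the groups overlapped. Their log2 differences were -0.34 (SD 0.63) and -0.54 (SD 0.993). Without wild type replicate 1 the brighter gave 0.07, and for numbers 2 and 3, which leave out both samples numbered 1, it gave -0.13. Tpsab1, the closely related second tryptase, had 145.8, 76.9 and 77.5 against 15.7, 77.8 and 34.3, a log2 difference of -0.99 with knockout 2 just above wild type 2 and 3. The paralogs Tpsb2 and Tpsab1 are near-identical in sequence, so signals assigned to either are uncertain.

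Kit, the receptor for the growth factor on which mast cells depend, did not share the lower values of Cpa3. Its brighter probe set had 135.8, 113.2 and 94 in the wild type and 166.6, 77.8 and 105.9 in the knockout. The groups were interleaved, with a log2 difference of -0.01 (SE 0.276, about as large as that of Cpa3). Its other probe set had 26.3, 45 and 60.5 against 68, 63.6 and 36.5 and a difference of 0.25, the only positive one among the 10. Cells other than mast cells also carry Kit.

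Ms4a2, the beta chain of Fc epsilon RI that amplifies its signal, was near the bottom of the array in most samples. The first probe set had 8.9, 16.1 and 34.2 in the wild type and 38.3, 5.3 and 3.7 in the knockout. The knockout was higher for number 1 (0.97 on the log2 scale) and lower for numbers 2 and 3 (-0.81). The second had 82 in wild type 1 and between 3.3 and 13.1 in the other 5 samples, and its difference of -0.54 became 0.22 for numbers 2 and 3. No direction can be read for Ms4a2.

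**Figure D2:**
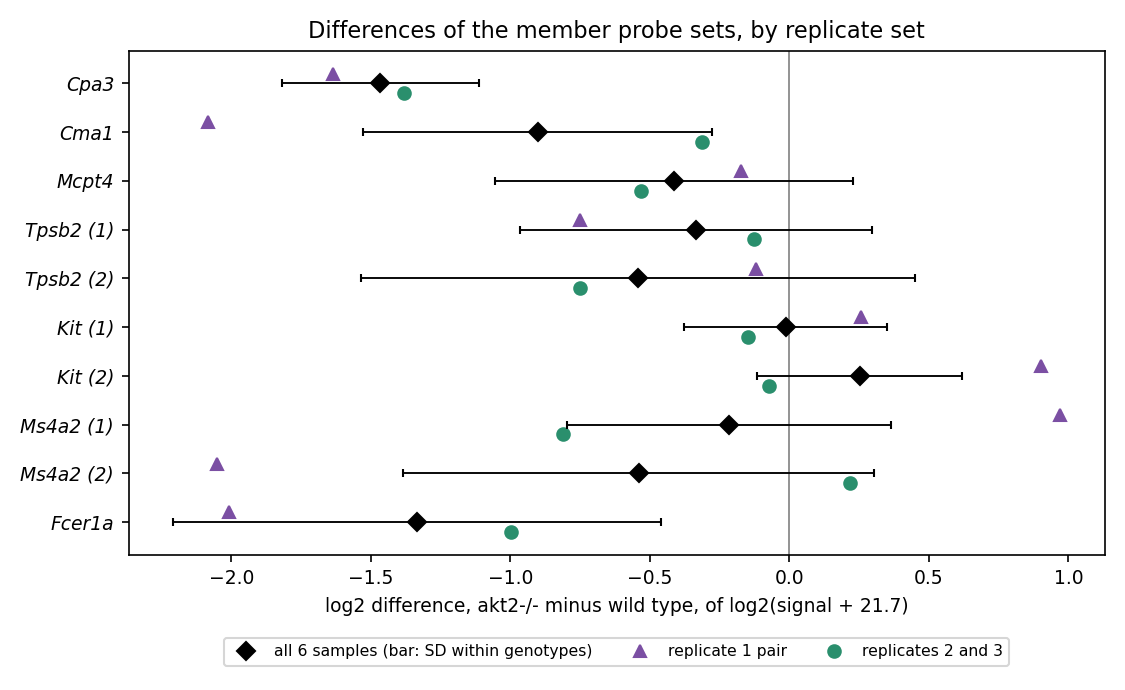
Log2 differences (akt2-/- minus wild type, of log2(signal + 21.7)) of the 10 mast cell probe sets over all 6 samples, with bars for the pooled SD within genotypes, and for the samples numbered 1 and those numbered 2 and 3 apart. Cpa3 has nearly the same difference in all 3, from -1.38 to -1.63, whereas that of Cma1 runs from -2.08 to -0.31 and those of Kit and Ms4a2 change sign between the replicate numbers.

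Cpa3 was chosen for its difference in these samples and enters the counts and medians below, so these are given without a reading. Counted together on the scale log2(signal + 21.7), 9 of the 10 probe sets had a lower mean in the knockout, against 52.6% of all probe sets. On that scale 3 of the 10 (Cpa3, Cma1 and Fcer1a) were at least 1.5-fold lower, against 9.4%. By the ratio of mean signals, with no constant added, 5 of the 10 were at least 1.5-fold lower, against 19.5% of all probe sets: Mcpt4, with a ratio of 1.70, and the second probe set of Ms4a2, with 4.45, joined those 3. Dim probe sets vary more: among the 21286 probe sets whose mean log2 signal lay within the range of the members, 5.08 to 7.07, 56.3% were lower, 17.6% at least 1.5-fold lower and 4.29% had all knockout samples below all wild type samples. Samples numbered 1 and those numbered 2 and 3 both gave lower values in 6 of the 10, against 27.5% of all probe sets, and opposite directions in 4. By the brightest probe set of each gene, all 7 members were lower on the scale log2(signal + 21.7), as 51.3% of genes were. The median of their log2 differences was -0.41 against -0.01 over all 18193 genes and 0.01 over the 11075 genes tested. The members' median was -0.75 for number 1 and -0.53 for numbers 2 and 3. Kit counts among the 7 with a difference of -0.01, though its mean signal was 116.8 in the knockout and 114.3 in the wild type. Its difference turned positive with quantile normalization (0.11) and with array medians set equal (0.07).

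Wild type 1 was the highest of the 6 samples in 6 of the 10 probe sets, as it was in 40.1% of all probe sets. Without it, 6 of the 10 probe sets were lower in the knockout, against 42.1% of all probe sets. Among the samples numbered 2 and 3, without either sample numbered 1, 9 of the 10 were lower, against 49.9%. The summed signal of the 10 probe sets was 1139.4, 607 and 678.7 in wild type 1, 2 and 3 and 591.4, 413.9 and 379.7 in knockout 1, 2 and 3. Every knockout sum was below every wild type sum, though knockout 1 came close to wild type 2. Leaving Cpa3 out, the sums were 894.5, 474.6 and 510.3 against 527.2, 360.3 and 344.1, and knockout 1 was then above wild type 2 and 3. Cpa3 made up 21.5% to 24.8% of the summed signal in the wild type samples and 9.38% to 13% in the knockout samples.

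Only 2 of the 10 probe sets, those of Cpa3 and the brighter of Kit, passed the filter for the tests, a mean log2 signal at or above the median of 6.868. Cma1, at 6.83, fell just short. At the members' range of signal, the absolute log2 difference between wild type 2 and wild type 3, samples of the same genotype, had a median of 0.404 and a 95th percentile of 1.35, and between knockout 2 and knockout 3 these were 0.432 and 1.41. With the arrays numbered 1 the spread was wider, with 95th percentiles of 2.56 between wild type 1 and 2 and 2.01 between knockout 1 and 2. In the brightest 10 percent of probe sets the median and 95th percentile were 0.0928 and 0.315 between wild type 2 and 3. The difference between the group means of Fcer1a, -1.33, was smaller in size than all 4 of these 95th percentiles at the members' range of signal. That of Cpa3, -1.47, was slightly larger than those among the samples numbered 2 and 3 and smaller than those with a sample numbered 1. These are unlike measures: the percentiles are for 2 single samples, and the differences of Cpa3 and Fcer1a are between means of 3 samples. Means vary less than single samples, so these percentiles do not measure the spread of a difference between means.

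**Figure D3:**
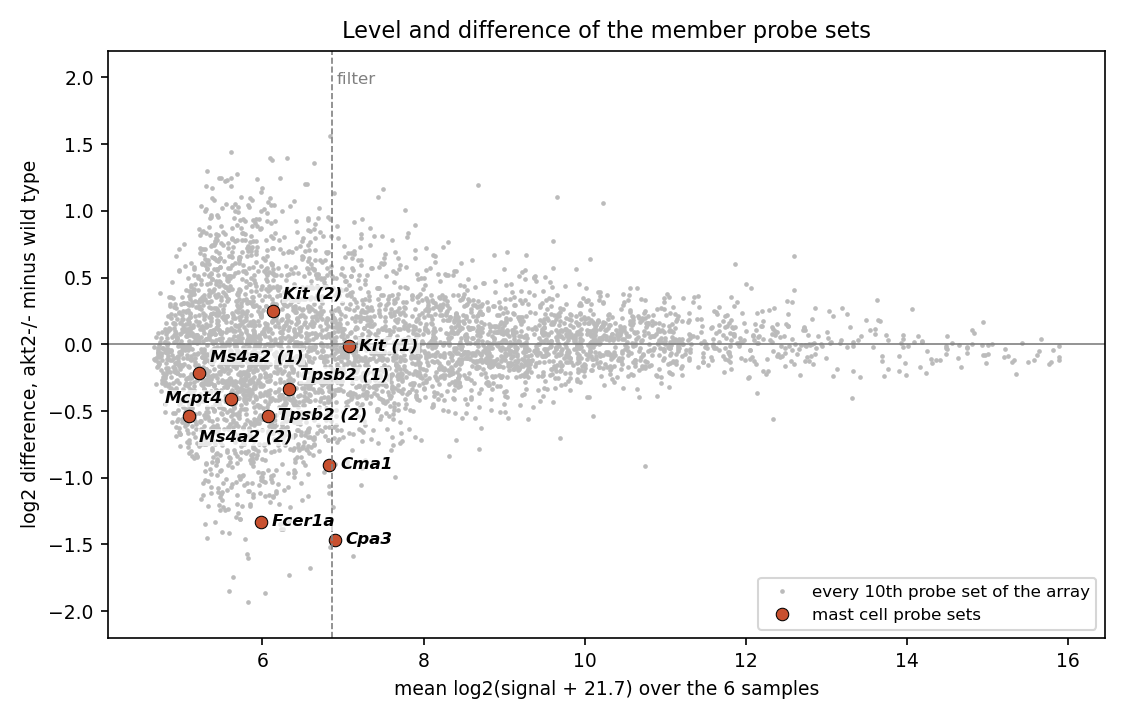
Mean log2(signal + 21.7) over the 6 samples against the log2 difference (akt2-/- minus wild type) for every 10th probe set of the array (grey) and for the 10 mast cell probe sets (red), with a dashed line at the filter of 6.868. The members lie at the dim end, where differences scatter most, with Cpa3 at the lower edge of the cloud and Fcer1a within its lower part.

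Other genes of the mast cell were taken from lists put together by function, with earlier results of these data known. Of 16 further granule and mediator genes, 14 had a probe set of their own. In the knockout 9 of them were lower and 5 higher, and the median of their log2 differences was -0.17. Only 5 passed the filter. By limma, 0 of these had an adjusted p under 0.05 and 0 an unadjusted p under 0.05, against 0% and 2.17% of the 11075 genes tested. Ltc4s, the synthase of leukotriene C4, had 272.8, 169.3 and 215.6 in the wild type and 76.3, 155 and 165.8 in the knockout. All knockout samples were lower (log2 -0.68, SE 0.302, limma adjusted p = 1), as in 4% of the 18193 genes. Ndst2, which sulphates the heparin of the granule, had -0.28, Alox5ap, the protein that presents arachidonic acid to lipoxygenase, -0.28, and Alox5, the lipoxygenase, 0.08. Hdc, which makes histamine, had 36.8, 21.3 and 9.2 against 15.2, 16.9 and 67.8 and was not tested.

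Of 14 further surface receptors, 11 had a probe set and 1 passed the filter. That was C3ar1, the receptor for the complement fragment C3a, which macrophages also carry. It had 325.2, 257.1 and 351.3 in the wild type and 187.4, 229.5 and 221.2 in the knockout (log2 -0.50, SE 0.183, limma adjusted p = 1), with no overlap of the groups. It was the 1 gene of the list with an unadjusted p under 0.05, against 2.17% of the 11075 genes tested. All knockout samples were lower in 2 of the 11 genes, C3ar1 and Hrh4 (log2 -1.05), where 4% of the 18193 genes had this. They were higher in 1, Adora3 (log2 0.85), as in 3.61% of all probe sets. Hrh4 and Adora3 were below the filter. The annotation used here names no probe set for Il1rl1, the receptor for interleukin 33, alone. Over the 11 genes, 8 were lower and 3 higher, and the median of -0.09 came from 0.16 for number 1 and -0.34 for numbers 2 and 3.

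Of 11 transcription factors of mast cells, 9 were tested and 0 passed after adjustment. Spi1, the factor PU.1 of myeloid cells, had 300.5, 275.8 and 212.6 in the wild type and 85.1, 116.7 and 159.2 in the knockout. Every knockout sample was lower (log2 -1.02, SE 0.244, limma adjusted p = 1), as in 4% of the 18193 genes. Spi1 was the 1 factor with an unadjusted p under 0.05, against 2.17% of the 11075 genes tested. With a block for the replicate 1 arrays there were 3 such factors, Spi1, Mitf and Lmo2, and 0 after adjustment, against 8.32% of all genes tested at an unadjusted p under 0.05 in that fit. Gata2 had 557.9, 651.4 and 613.1 against 452.4, 656.4 and 481.9 (log2 -0.20, SE 0.194), with overlapping groups. Mitf had 2957.5, 2307.8 and 2314.4 against 3634.2, 2874.7 and 3019.9 (log2 0.33, SE 0.186), higher in the knockout for each number but overlapping. Lmo2, a partner of GATA factors, had -0.28. Mitf and Gata2 are also expressed outside mast cells.

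Kit ligand and the proteins that carry the Kit signal passed the filter in 16 of 17 genes on the array. After adjustment 0 passed, and 2 were lower with an unadjusted p under 0.05, where 2.17% of all genes tested had one in either direction. Kitl, the ligand itself, had 1893.4, 4845.5 and 4175.2 in the wild type and 2986.7, 3375.3 and 3210.1 in the knockout. All knockout samples lay between wild type 1 and the other wild types (log2 -0.08, from 0.65 for number 1 and -0.45 for numbers 2 and 3). Pik3cd, a catalytic subunit of phosphoinositide 3-kinase in leukocytes, had 602.6, 591.9 and 465.9 against 345.5, 349.3 and 414.6 (log2 -0.55, SE 0.178, limma adjusted p = 1). Gab2, an adaptor used by both Kit and Fc epsilon RI, had 921, 919.6 and 971.7 against 718.8, 759.9 and 681.3 (log2 -0.37, SE 0.148, limma adjusted p = 1). In both the groups did not overlap, and 4% of the 18193 genes had all knockout samples lower. Of further signalling proteins, Pik3r1 (0.50) had all knockout samples above all wild type samples, as 3.61% of all probe sets did. Sos1 (0.46) was higher on average and overlapped.

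Of 20 genes of Fc epsilon receptor signalling, 18 had a probe set, of which 10 were lower and 8 higher (median -0.06), and 12 were tested with 0 past the adjusted threshold. Gab2 was the 1 with an unadjusted p under 0.05, against 2.17% of all genes tested. Fcer1g, the signalling gamma chain that other Fc receptors of myeloid cells share, had 802.9, 903.6 and 899.7 in the wild type and 681.9, 649.7 and 964.3 in the knockout, with knockout 3 the highest of the 6. The adaptor Lcp2 had -0.60, the exchange factor Vav1 -0.54 and the phospholipase Plcg2 0.34, all overlapping. Among 11 growth, homing and activating ligands, 7 were tested and 0 passed after adjustment. Ccl2, a chemokine, had 259.3, 382.6 and 303.5 against 195.4, 189.1 and 233.5 (log2 -0.55, SE 0.195, limma adjusted p = 1). It was the 1 ligand with an unadjusted p under 0.05, against 2.17% of all genes tested. Il33, the alarmin interleukin 33, had 110.9, 223.3 and 199.6 against 138.3, 134.6 and 168.2 with overlapping groups. With a block for the replicate 1 arrays, Lcp2 and the ligand Tgfb1 (log2 -0.39) also had an unadjusted p under 0.05, against 8.32% of all genes tested in that fit.

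Markers of other cells that share mast cell genes or could come with them were read beside the members. Basophil markers, which include Fcer1a and Ms4a2, had 5 of 7 genes lower and a median of -0.02, with summed signals of 242 to 666 in the wild type and 230 to 401 in the knockout. Their defining protease Mcpt8 had signals of 2.9 to 8.9 in the wild type and 5.5 to 22.1 in the knockout, at or below the 20th percentile of all values in all but knockout 2. Eosinophil markers had 5 of 5 genes lower, 0 of them past the filter, where 51.3% of the 18193 genes were lower. Their summed signals were 104 to 312 in the wild type and 27 to 68 in the knockout. Epx, eosinophil peroxidase, had 79.3, 20.3 and 30.5 against 8.2, 7.4 and 4.7, and Prg2, the major basic protein, 80.9, 52.5 and 18.7 against 7.8, 5.3 and 4. In both, all knockout samples were lower, as in 4% of the 18193 genes, and most of these signals lay near or below the pseudocount. The other eosinophil markers, Il5ra (log2 -0.79), Siglecf (-0.39) and Ccr3 (-0.03), overlapped between genotypes. No probe set had a signal of exactly 0. The part of eosinophils or basophils in the mast cell values was not tested.

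Of 16 macrophage and monocyte markers 14 were lower, against 51.3% of the 18193 genes, with a median of -0.18 over the list. Of the 16, 0 had an unadjusted limma p under 0.05 or groups that did not overlap. With a block for the replicate 1 arrays 1 of them, Lyz2 (log2 -0.43), had such a p, against 8.32% of all genes tested in that fit. Their summed signals were 22578 to 36551 in the wild type and 17222 to 34394 in the knockout. Neutrophil, dendritic, T and natural killer and B cell markers had medians of -0.08, -0.20, -0.08 and 0.23. Zbtb46 of the dendritic list had all knockout samples lower (log2 -0.27), as did 4% of the 18193 genes. It also had an unadjusted limma p under 0.05 with the block. Nkg7 of the T and natural killer list, below the filter, had all knockout samples higher (log2 1.02), as did 3.61% of all probe sets. Markers of tissues that could be carried along with the ventricle were read as well. The median was 0.27 for atrial myocytes, -0.20 for mesothelium and epicardium, -0.13 for adipocytes and 0.07 for fibroblasts, with 0 genes of these 4 lists at an unadjusted limma p under 0.05. With a block for the replicate 1 arrays there was 1, Stard10 of the atrial list, which had all knockout samples lower (log2 -0.41). Upk1b of the mesothelial list also had all knockout samples lower, as did 4% of the 18193 genes. All knockout samples were higher in 2 of 10 fibroblast markers, Fbln1 and Col3a1, and in 1 of 8 mesothelial markers, Krt19. The same held for 3.61% of all probe sets. Of 11 endothelial markers, 8 were lower, with a median of -0.12. All knockout samples were lower in 3 of them, Vwf, Tek and Pecam1, by -0.32, -0.22 and -0.19 on the log2 scale. The same held for 4% of the 18193 genes. By limma, 0 of the 11 had an unadjusted p under 0.05, and with that block 1 had, Vwf. The part of these tissues in the mast cell values was not tested.

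**Figure D4:**
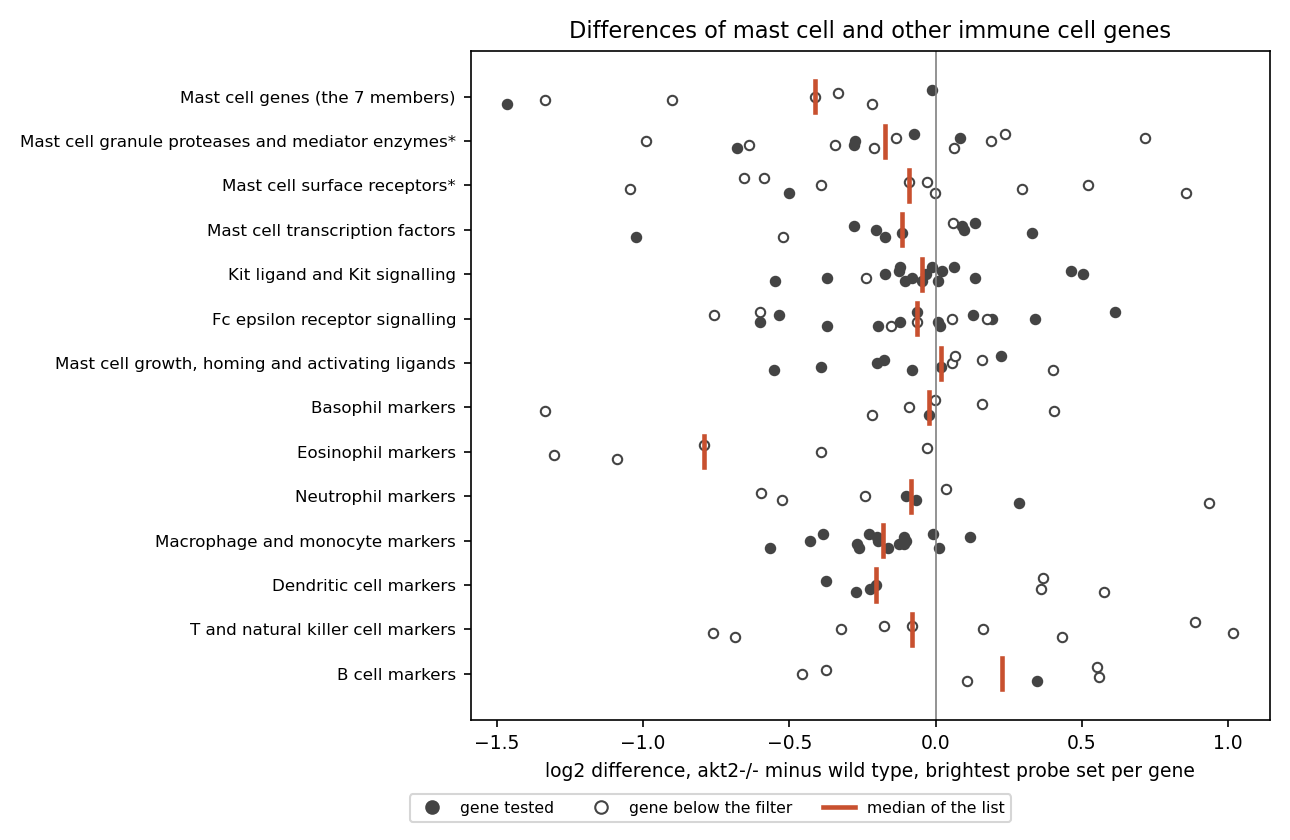
Log2 differences (akt2-/- minus wild type) of the brightest probe set of each gene, for the 7 mast cell genes, for lists of other mast cell genes and pathways (an asterisk marks lists without the 7) and for markers of other immune cells. Filled points passed the filter and were tested, open points were not, and a red line gives each median. The 7 genes have a median of -0.41 and the eosinophil markers, all below the filter, one of -0.79, while the other mast cell lists lie between -0.17 and 0.02.

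The genes whose values ran most like those of Cpa3 over the 6 samples were found by the root mean square difference of log2 values centred on each gene's mean, among 11074 other tested genes. The nearest were Arid3a, an AT-rich DNA-binding factor, at 0.332, then 2810403D21Rik (0.343), D630004K10Rik (0.346), 2610035D17Rik (0.347) and Gemin8, a subunit of the SMN complex, at 0.363. All 5 had every knockout sample below every wild type sample, which their likeness to Cpa3 all but requires. Among the members Fcer1a was nearest at 0.485, with 1.34% of 18192 other genes as near or nearer. Tpsb2 and Cma1 stood at 0.698 and 0.699 (16.1% and 16.3%), Kit at 0.789, Ms4a2 at 0.802 and Mcpt4 at 0.917, where 67.4% of genes were as near or nearer. The other mast cell genes were thus, apart from Fcer1a, not among the genes closest to Cpa3 in these 6 samples.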

How the data were processed

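Per the submitters' processing notes the authors computed signals with MAS5, which combines perfect-match and mismatch probes; version and settings: not given in the sources used here. Deposited values are linear intensities for 45101 probe sets on 6 arrays and were used as deposited. The number of arrays limits the precision, and detection calls were not used here. Tests left out the 64 control probe sets. The platform annotation gave 34945 probe sets 1 gene symbol, 932 several (not named here) and 9160 none.

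Signals were put on log2(signal + 21.7), the 20th percentile. The 22519 probe sets at or above the median mean log2 of 6.868 were fitted without covariates by lmFit and eBayes of limma 3.58.1 (R 4.3.3), as were 11075 genes by their brightest probe set, with Benjamini-Hochberg adjustment over all of them and a threshold of 0.05. SE are moderated errors, from the fit of probe sets for Akt2 and the members and of genes otherwise; adjusted p-values come from the test over genes. The fit was tested on simulated data. Promoters came from RefSeq tables on GRCm38.p6, used otherwise only for the order of genes.

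The members and gene lists were chosen with earlier results of these data known. Named were Akt2, all member probe sets, up to 4 tested genes of each list by lowest p and the 5 genes most like Cpa3. So were 9 mast cell genes of interest (Kitl, Fcer1g, Gata2, Mitf, Il1rl1, Tpsab1, Hdc, Mcpt8 and Spi1). Neighbours on the chromosome, the eosinophil markers and untested list genes whose groups did not overlap were added as context after their values were seen. Replicate numbers are in the labels. Array deviations from the genotype mean correlated, number by number, at 0.607, 0.455 and 0.394. Numbers 2 and 3 also correlated across (0.445 and 0.363). Deviations from a genotype mean cancel out, so number 1 standing apart makes numbers 2 and 3 alike. The values therefore set number 1 apart from 2 and 3 but do not show that 2 and 3 pair by number. The main fit used no pairing. Alternatives tried were pseudocounts, filters, array scalings, variance estimates, a replicate block, a block for the replicate 1 arrays, subsets of the replicates and leaving out each array.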

Additional observations from a re-analysis of the deposited data

How the results depend on the processing

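The number of genes called by limma, 0, became 1 with a pseudocount of 100, 1 with the stricter filter, 1 with a trended, robust variance, 1 with a block for the replicate 1 arrays and 5 when that block was joined to the trended, robust variance, an alternative chosen after seeing the data. Of probe sets, 1 and 13 were called with that block, alone and joined. None of these calls is a mast cell member. With the replicate block 0 genes and 0 probe sets were called, 663 genes had an unadjusted p under 0.05 against 240, and no member's difference moved, since the design is balanced. Leaving out each array gave 0 calls throughout, 6 to 9 member probe sets lower (9 with all samples) and a member median between -0.75 and -0.45 (-0.41 with all samples). Cpa3 was lower under all 15 alternatives that could move it, from -1.80 with a pseudocount of 1 to -0.88 with a pseudocount of 100, and Cma1, Fcer1a and Mcpt4 were lower under all 15 as well. Tpsb2 was lower in 14, Ms4a2 in 12 and Kit in 7. For Cpa3 and Fcer1a the groups did not overlap, so no pseudocount, left-out array or subset of replicates could change their direction. Cpa3 was also chosen for its difference in these samples, so its unchanged direction is a description only. The limit is the low signal: with the stricter filter 0 of the 10 member probe sets would be tested.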
